A study of Mus musculus with 6 samples.

Results

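The 10 genes described here encode secreted growth factors and related proteins that act on blood vessels, epithelium, stroma and immune cells: Vegfa, Vegfb, Thbs1, Areg, Ereg, Hbegf, Pdgfa, Pdgfb, Igf1 and Grn. They were chosen by name and found by gene symbol among the 54532 gene IDs of the deposited table, each with a single ID. RNA was measured in CD11c-sorted cells, called dendritic cells by the labels, from tumours that cells of a melanoma line formed in C57Bl/6 mice and that were harvested on day 28. In the Gli2CA group (3 libraries) the implanted melanoma cells carried an active mutation of Gli2, a transcription factor of the Hedgehog pathway, and in the NTC group (3 libraries) they carried a non-targeted control. Both groups therefore shared the melanoma line, the puromycin culture and the implantation in Matrigel, and the sorted host cells were not themselves altered. The labels give no age or sex of the mice, and do not state that each library is from its own mouse. The p-values hence describe how far these particular libraries vary, and part of that variation may be technical. Libraries are named by the number in their titles.

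Vascular endothelial growth factors (VEGF) bind receptor tyrosine kinases of endothelium and start vessel sprouting, and Vegfa is a textbook target of hypoxia-inducible factors (HIF). Thrombospondin opposes them by binding CD36 and CD47 and helps to activate latent TGF-beta. Ligands of the EGF family (Areg, Ereg, Hbegf) are made as membrane precursors, are cut free by ADAM proteases and signal through ERBB receptors on epithelial, stromal and tumour cells. Platelet-derived growth factors recruit fibroblasts and pericytes, Igf1 is a survival factor that tissue macrophages make, and Grn encodes progranulin, an abundant lysosomal and secreted protein of myeloid cells.

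Levels are in FPKM, a unit per length and per library size, so they can be compared between genes. The depth recovered from them was 25490000 to 29130000 fragments in the Gli2CA libraries, and 18780000, 27880000 and 23170000 in NTC 1, NTC 2 and NTC 3. Genes at 1 FPKM or more numbered 11257 to 11998 in the Gli2CA libraries, against 7827 in NTC 1, 11547 in NTC 2 and 8534 in NTC 3, so NTC 1 and NTC 3 detected fewer genes and stood apart from the other 4 libraries. Transcripts of the CD11c gene Itgax, and of the dendritic cell genes Flt3 and Zbtb46, were present in all 6 libraries. T cell and macrophage transcripts were present too: Cd3e stood at 52.6 to 109 FPKM in the Gli2CA libraries and 84.0 to 203 FPKM in the NTC libraries, and the complement gene C1qb at 1407 to 1815 and 1295 to 2078 FPKM. In such bulk libraries, fewer cells of a type and less RNA per cell cannot be told apart.

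Of the 10 growth factor genes, 9 had a mean of at least 1 FPKM and were tested among 12266 genes. Ereg was listed at 0 in all 6 libraries. Of the 9, 8 had the higher mean log2 level in Gli2CA, as did 59.7% of all genes tested. Vegfa, Thbs1, Hbegf, Pdgfa and Grn lay wholly higher in the Gli2CA libraries than in the NTC libraries (5 of 9, where 10.9% of all genes did), while 0 of 9 lay wholly lower, where 5.79% of all genes did. The same 5 genes had an unadjusted p under 0.05 by limma, as did 7.82% of all genes in the higher direction, and 0 of 9 did so in the lower direction, where 2.81% of all genes did. None passed the threshold, an adjusted p of 0.05 over all genes tested, which 0% of the 12266 genes reached. The log2 differences given here are those of log2(FPKM + 1), taken as Gli2CA minus NTC, and their median was 2.22 over the 9 genes and 0.25 over all genes. The added 1 understates the change of low genes. The smallest two-sided p that exact permutation of 6 libraries in groups of 3 allows is 0.1, and these 5 genes had that value.

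**Figure D1:**
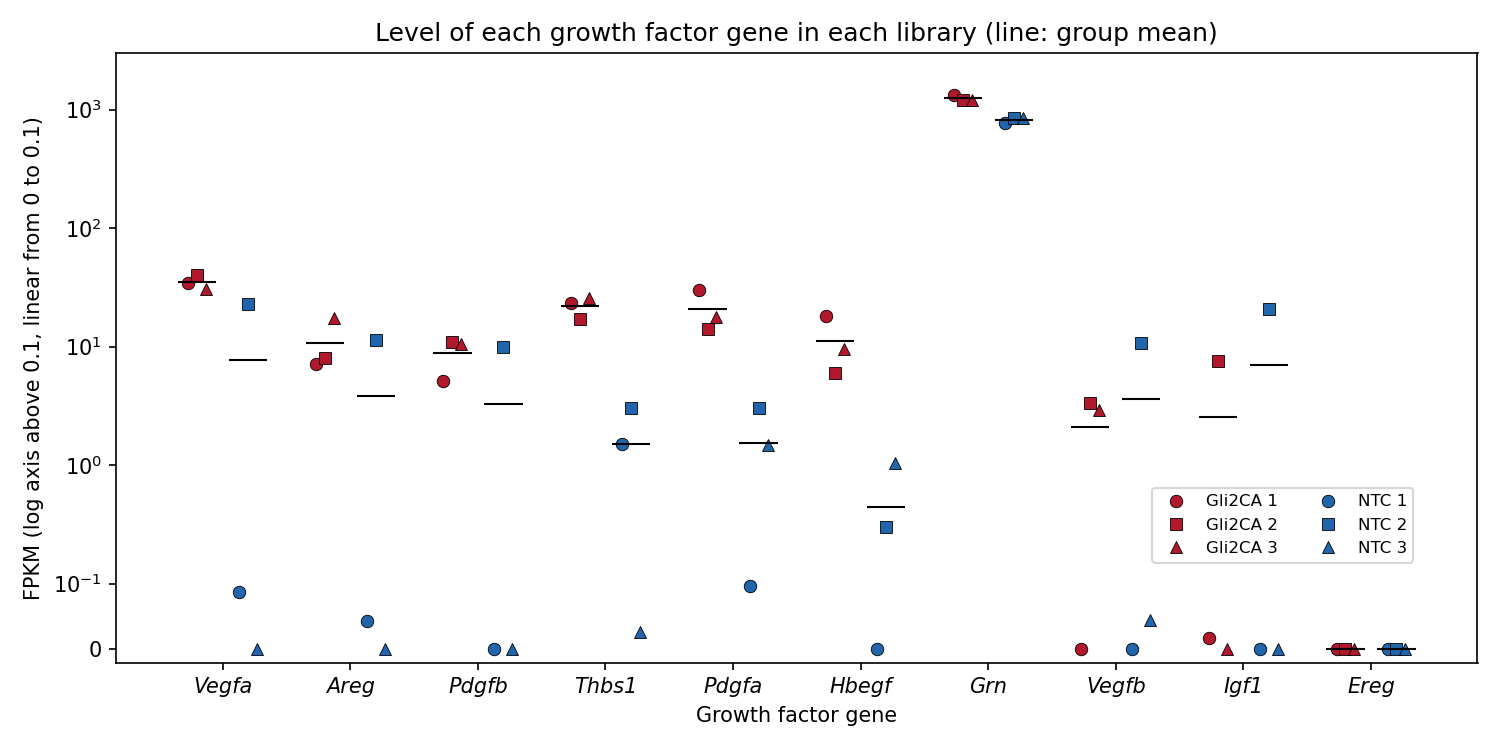
FPKM of each growth factor gene (x axis) in each library, on an axis that is logarithmic above 0.1 and linear from 0 to 0.1; red symbols are Gli2CA libraries, blue symbols NTC libraries, and lines the group means of 3. NTC 2 (blue squares) sits among the Gli2CA libraries for Areg and Pdgfb and below but near them for Vegfa, while NTC 1 and NTC 3 are at or near 0 for these genes. Vegfa, Thbs1, Pdgfa, Hbegf and Grn separate the groups.

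Among the vessel growth factors, Vegfa lies on chromosome 17, 46016993 to 46032369 (GRCm38, minus strand). It had 34.3, 40.5 and 30.7 FPKM in Gli2CA 1, 2 and 3, against 0.0866, 23.0 and 0 FPKM in NTC 1, 2 and 3. The groups did not overlap, yet NTC 2 stood near the Gli2CA libraries while NTC 1 held 2 fragments and NTC 3 none, at or below the level of 3 fragments (0.130 and 0.105 FPKM). The group means were 35.2 ± 4.94 FPKM in Gli2CA and 7.71 ± 13.3 FPKM in NTC (SD, n = 3 each), with a log2 difference of 3.60 ± 1.24 (SE, limma unadjusted p = 0.0189, adjusted p = 0.355). Leaving out NTC 2 gave a log2 difference of 5.11 (limma adjusted p = 0.0542, the lowest of 0.0542 to 0.913 over 20 other settings). The fit that omits NTC 1 together with NTC 3, added once the data had been seen, gave 0.58.

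Vegfb, whose product binds VEGF receptor 1 and is tied more to the survival of vessels than to sprouting, did not follow Vegfa. It had 0, 3.36 and 2.92 FPKM in the Gli2CA libraries, against 0, 10.8 and 0.0447 FPKM in NTC 1, 2 and 3. The groups overlapped and the highest value was that of NTC 2, at 5.14 times the Gli2CA mean. Its mean was lower in Gli2CA in FPKM (2.09 ± 1.83 against 3.60 ± 6.20, SD, n = 3 each), while the log2 difference was 0.16 ± 1.15 (SE, adjusted p by limma 0.970), and that sign turned in 8 of 19 other settings.

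The promoter windows of the genes that separated the groups or shared the pattern of Vegfa are shown from RefSeq (GRCm38.p6), where an entry was found. The letters searched, on both strands, were the full cAMP response element TGACGTCA and its shorter part TGACG, the AP-1 letters TGANTCA, and the HIF core letters, either ACGTG or else the variant GCGTG; capitals mark any match. The full element holds the shorter part on both strands, so these matches overlap. Each window runs 5′ to 3′ from 250 bases before to 50 bases after a transcript start.
Vegfa, chr17:46032328-46032627, minus strand: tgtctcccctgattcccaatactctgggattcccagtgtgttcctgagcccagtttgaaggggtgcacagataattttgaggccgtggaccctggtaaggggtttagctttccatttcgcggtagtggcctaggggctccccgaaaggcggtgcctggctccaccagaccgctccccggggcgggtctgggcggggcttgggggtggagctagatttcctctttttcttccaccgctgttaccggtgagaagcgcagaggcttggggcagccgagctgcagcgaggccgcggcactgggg
Areg, chr5:91139349-91139648, plus strand: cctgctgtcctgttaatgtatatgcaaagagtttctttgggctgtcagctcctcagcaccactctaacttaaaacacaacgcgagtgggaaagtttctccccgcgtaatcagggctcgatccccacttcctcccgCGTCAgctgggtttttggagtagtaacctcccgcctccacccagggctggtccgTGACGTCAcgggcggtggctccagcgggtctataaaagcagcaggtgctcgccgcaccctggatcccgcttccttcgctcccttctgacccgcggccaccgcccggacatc
Pdgfa, chr5:138994895-138995194, minus strand: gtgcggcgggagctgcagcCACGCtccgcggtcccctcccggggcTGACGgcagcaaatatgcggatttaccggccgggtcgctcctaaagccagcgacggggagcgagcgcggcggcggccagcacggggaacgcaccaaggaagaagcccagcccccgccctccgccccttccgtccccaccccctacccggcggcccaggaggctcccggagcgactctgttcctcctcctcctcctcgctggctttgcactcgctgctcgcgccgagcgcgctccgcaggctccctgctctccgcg
Grn, chr11:102430257-102430556, plus strand: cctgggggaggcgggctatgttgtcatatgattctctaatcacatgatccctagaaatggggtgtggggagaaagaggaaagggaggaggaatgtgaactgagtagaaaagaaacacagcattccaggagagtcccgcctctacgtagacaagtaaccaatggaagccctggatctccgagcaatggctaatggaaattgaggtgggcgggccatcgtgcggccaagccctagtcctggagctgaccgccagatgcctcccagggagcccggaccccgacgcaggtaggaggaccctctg

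The Areg window held TGACGTCA at position 190 of 300, counted from its 5′ end, an element that 1.79% of the 32851 promoter windows of the table held. TGACG, present in 20.8% of all windows, occurred at 1 more place in that of Areg and at 1 place in that of Pdgfa, which also held GCGTG (32.4% of all windows). The windows of Vegfa and Grn shown held none of the 5 motifs, which says only that these letters are not in these windows. Vegfa and Pdgfa have another window each, not shown, and that of Pdgfa held none of the 5 motifs. The other Vegfa window, chr17:46025114-46025413, lies wholly inside the gene (46016993 to 46032369). It held both HIF core motifs and the shorter cAMP motif. A HIF core match at position 40 and the cAMP match at position 42 share letters, so they are not separate elements. ACGTG is found in 19.6% of all windows, the AP-1 letters in 7.81%. These matches are letters in the genome, and no binding was measured here. The windows of Vegfb and Igf1, not printed, held GCGTG, and that of Igf1 also TGANTCA, and Thbs1, Ereg, Hbegf and Pdgfb are named without one.

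Thbs1, the gene of thrombospondin, lies on chromosome 2, 118111876 to 118127133 (plus strand). It had 23.4, 17.1 and 25.9 FPKM in the Gli2CA libraries, against 1.51, 3.02 and 0.0265 FPKM in NTC 1, 2 and 3. Unlike Vegfa, it was low in NTC 2 too, at 0.136 times the Gli2CA mean. The log2 difference was 3.39 ± 0.83 (SE, limma unadjusted p = 0.00329, adjusted p = 0.216), and it lay between 2.50 and 5.34 in all 20 other settings. Thus the antagonist and Vegfa itself were both higher in every Gli2CA library than in any NTC library.

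Among the EGF-family ligands, Hbegf encodes heparin-binding EGF-like growth factor, which was first purified from macrophage-like cells, and lies on chromosome 18, 36504927 to 36515805 (minus strand). It had 17.96, 6.04 and 9.51 FPKM in the Gli2CA libraries, against 0, 0.302 and 1.04 FPKM in NTC 1, 2 and 3. NTC 2 gave 16 fragments here, fewer than the 46 of NTC 3 and far under the 305 to 996 of the Gli2CA libraries. The group means were 11.2 ± 6.14 and 0.446 ± 0.533 FPKM (SD, n = 3 each), with a log2 difference of 3.02 ± 0.82 (SE, limma unadjusted p = 0.00574, adjusted p = 0.237). The difference was 2.97 without NTC 2 and 3.10 without both NTC 1 and NTC 3.

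Areg encodes amphiregulin, an ERBB1 ligand of tissue repair, and lies on chromosome 5, 91139599 to 91148432 (plus strand). It had 7.06, 7.94 and 17.4 FPKM in the Gli2CA libraries, against 0.0438, 11.5 and 0 FPKM in NTC 1, 2 and 3. The groups overlapped: NTC 2 exceeded Gli2CA 1 and Gli2CA 2, while NTC 1 held 1 fragment and NTC 3 none. The log2 difference was 2.22 ± 1.15 (SE, limma unadjusted p = 0.0878, adjusted p = 0.516), and it was 3.43 without NTC 2 and -0.18 without both NTC 1 and NTC 3.

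Ereg, which encodes epiregulin and adjoins Areg on chromosome 5 (91074622 to 91093646), had 0 fragments in all 6 libraries. At these depths 3 fragments of Ereg would have been 0.0249 to 0.0285 FPKM in the Gli2CA libraries and 0.0261 to 0.0387 FPKM in the NTC libraries, and a level under these floors was not detectable. These floors cover counting error only.

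Of the platelet-derived growth factors, Pdgfa lies on chromosome 5, 138976014 to 138997370 (minus strand), and had 30.1, 14.2 and 17.6 FPKM in the Gli2CA libraries. The NTC libraries had 0.0966, 3.06 and 1.49 FPKM. All 3 NTC values lay far under the lowest Gli2CA value, the highest being NTC 2 with 94 fragments against 415 to 966. The log2 difference was 3.21 ± 0.84 (SE, limma unadjusted p = 0.00491, adjusted p = 0.229), or 3.64 if NTC 2 is omitted, and 2.35 with NTC 2 as the only NTC library. The antisense gene 6330403L08Rik overlaps Pdgfa and reached 1.55 FPKM in Gli2CA 2. Since it is not stated whether the counting used strand, reads of the pair cannot be told apart.

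Pdgfb, the chain that attracts pericytes to vessels, lies on chromosome 15, 79995874 to 80014977 (minus strand), and took the pattern of Areg rather than that of Pdgfa. It had 5.08, 10.9 and 10.6 FPKM in the Gli2CA libraries, against 0, 9.86 and 0 FPKM in NTC 1, 2 and 3. NTC 2 thus lay within the range of the Gli2CA libraries, and the other NTC libraries held no fragment. On the log2 scale the groups differed by 2.09 ± 1.11 (SE, adjusted p by limma 0.524), or by 3.23 without NTC 2 and -0.21 without both NTC 1 and NTC 3.

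Igf1, on chromosome 10 at 87858265 to 87937042 (plus strand), did not separate the groups. It had 0.0175, 7.62 and 0 FPKM in the Gli2CA libraries, against 0, 20.8 and 0 FPKM in NTC 1, 2 and 3. A single library of each group held nearly all of it, Gli2CA 2 with 397 fragments and NTC 2 with 1138, while the other 4 held 1 fragment in all. On the log2 scale the difference was -0.44 ± 1.42 (SE, adjusted p by limma 0.924), and it was 1.04 without NTC 2.

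Grn, on chromosome 11 at 102430315 to 102437048 (plus strand), was by far the most abundant of the 10 genes. It had 1322, 1194 and 1205 FPKM in the Gli2CA libraries, against 771, 846 and 852 FPKM in NTC 1, 2 and 3. The groups did not overlap, and each group's libraries lay close together. The means were 1240 ± 71.2 FPKM in Gli2CA and 823 ± 45.4 FPKM in NTC (SD, n = 3 each), a ratio of 1.51. Its log2 difference of 0.59 ± 0.14 (SE, limma unadjusted p = 0.00317, adjusted p = 0.216) lay between 0.53 and 0.64 in all 20 other settings. The adjusted p was 0.0728 to 0.913 in those settings and never passed.

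**Figure D2:**
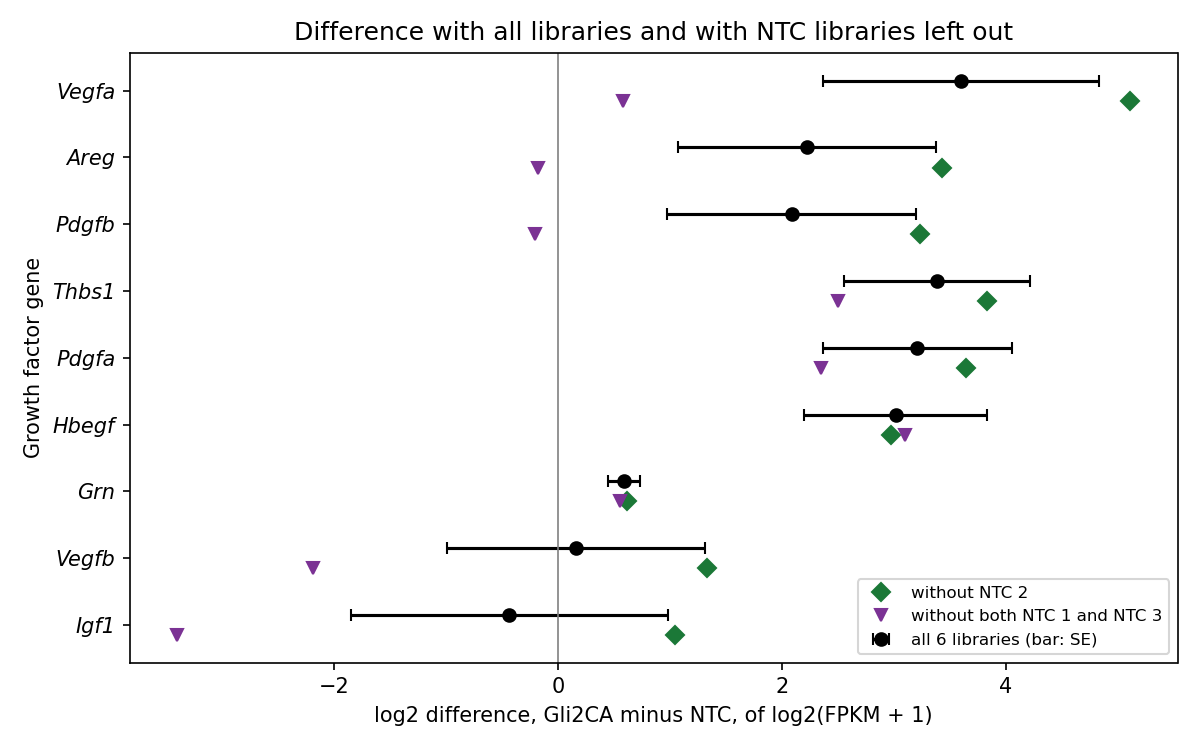
Log2 difference of each tested growth factor gene (x axis, Gli2CA minus NTC of log2(FPKM + 1)) with all 6 libraries (black, bar: SE), without NTC 2 (green) and with NTC 2 as the only NTC library (purple). Thbs1, Pdgfa, Hbegf and Grn keep differences of 2.50, 2.35, 3.10 and 0.55 against NTC 2 alone, whereas those of Areg and Pdgfb go to -0.18 and -0.21 and that of Vegfa to 0.58.

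The 9 tested genes thus took several patterns across libraries, which were described after their values were seen. Vegfa, Areg and Pdgfb were under 0.1 FPKM in both NTC 1 and NTC 3 and at 1 FPKM or more in the other 4 libraries (3 of 9, where 5.54% of all genes tested were). With Vegfb and Igf1, 5 of 9 were under 0.1 FPKM in both NTC 1 and NTC 3, as were 18.1% of all genes tested. Against NTC 2 alone, Vegfa, Thbs1, Hbegf, Pdgfa and Grn were lower in NTC 2 than in all 3 Gli2CA libraries (5 of 9, where 23.1% of all genes were), and Vegfb and Igf1 were higher in NTC 2 (2 of 9, where 30.8% were). The low number of genes detected in NTC 1 and NTC 3 moves with the first pattern, and its part in it was not tested. Summed without Grn, the growth factor genes came to 108 to 118 FPKM in the Gli2CA libraries, against 1.73, 82.3 and 2.60 FPKM in NTC 1, 2 and 3.

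The likeness of 2 genes was measured by the root mean square difference between their log2(FPKM + 1) profiles over the 6 libraries, each centred on its own mean. Among the growth factor genes the closest pair was Areg and Pdgfb, at 0.34, followed by Pdgfa and Hbegf, at 0.50. The profile of Areg itself departs from its mean by 1.68 on this measure, and that of Hbegf by 1.59. The 2 closest of all tested protein-coding genes were Dus2 and Gpkow for Vegfa (0.18 and 0.20), Meis3 and Prrg2 for Areg (0.16 and 0.21), and Nkiras1 and Hivep3 for Pdgfb (0.11 and 0.12). Dus2, for one, had 24.4, 40.2 and 28.5 FPKM in the Gli2CA libraries, against 0.102, 24.2 and 0 FPKM in NTC 1, 2 and 3. Thbs1 was closest to Ifit2 and Car9 (0.20 and 0.40), Hbegf to Cavin2 and Parva (0.17 and 0.32), Pdgfa to Myo1e and Il7r (0.23 and 0.32), and Grn to Tfe3 and Il10ra (0.07 and 0.09). Vegfb was closest to Utf1 and Mrc2 (0.23 and 0.26), and Igf1 to Clip3 and Klhl22 (0.33 and 0.38). These are descriptions over 6 libraries and do not bear on shared function.

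Among receptor genes for these factors, those of the ERBB, PDGF and IGF1 receptors were mostly low in the sorted cells, while Cd47 was not. Egfr was at 0 to 0.023 FPKM in the Gli2CA libraries and 0.012 to 0.029 FPKM in the NTC libraries, and Erbb4 at 0 in all, so that of the 4 ERBB genes Erbb3 alone was tested, on the strength of 7.85 FPKM in Gli2CA 1. Pdgfra and Pdgfrb were listed at 0 in all Gli2CA libraries and were found in NTC 1 alone, at 5.08 and 0.806 FPKM. Igf1r stood at 0.022 to 1.00 FPKM in the Gli2CA libraries and 0 to 0.513 FPKM in the NTC libraries. The VEGF receptor genes Flt1 and Kdr were measured at 2.92 ± 1.41 against 7.91 ± 7.59 FPKM and 4.83 ± 2.98 against 2.82 ± 4.85 FPKM, in Gli2CA and NTC (SD, n = 3 each), with overlap. Nrp1, a co-receptor of VEGF and semaphorins, was the one receptor wholly lower in Gli2CA, with 13.5, 5.12 and 14.1 FPKM against 31.0, 27.9 and 52.0 FPKM in the NTC libraries (log2 difference -1.73 ± 0.61, limma unadjusted p = 0.0210, adjusted p = 0.367). Its relative Nrp2 had 3.81, 0.658 and 2.50 FPKM in the Gli2CA libraries and was listed at 0 in all NTC libraries. Nrp2 thus passed the 1 FPKM filter through Gli2CA alone, which fixed its direction beforehand. Of 11 thrombospondin relatives and receptors 9 were tested, and Lrp1, the endocytic receptor that clears thrombospondin, was the one without overlap (1 of 9, where 10.9% of all genes lay wholly higher), at 49.3 to 158 FPKM in Gli2CA against 2.66 to 39.6 FPKM in NTC (limma adjusted p = 0.463). Itgb3, an integrin subunit, and the chaperone gene Calr overlapped, as did the thrombospondin receptors Cd36 and Cd47, at 14.6 to 66.3 against 24.0 to 66.6 FPKM and 203 to 438 against 173 to 348 FPKM.

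Other ligands of the same families were few. Of 8 other EGF-family ligands, Btc (betacellulin) and Nrg1 (neuregulin) were tested. Btc had 13.5, 11.4 and 2.45 FPKM in the Gli2CA libraries, against 0, 0.849 and 0 FPKM in NTC 1, 2 and 3 (log2 difference 2.80, limma adjusted p = 0.303), and the groups of Nrg1 overlapped. Of 5 other VEGF and PDGF family ligands Pgf alone was tested. Pgf, the placental growth factor that binds Flt1, had 17.8, 35.3 and 2.65 FPKM in the Gli2CA libraries and was listed at 0 in all 3 NTC libraries (limma adjusted p = 0.231). It passed the 1 FPKM filter through Gli2CA alone, so its direction was fixed beforehand. Among 11 genes for the shedding of EGF-family ligands, 9 were tested, 8 had the higher mean in Gli2CA, 5 lay wholly higher and 4 were higher at an unadjusted p under 0.05. Over all genes tested these shares were 59.7%, 10.9% and 7.82%. With NTC 2 as the only NTC library, 6 of 9 had the higher mean and the median log2 difference was 0.73 (all genes -0.10), against 1.63 with all libraries (all genes 0.25). Adam15 and Adam8, both membrane metalloproteases, stood at 82.8 ± 11.1 against 27.8 ± 11.8 FPKM and at 220 ± 73.1 against 102 ± 18.9 FPKM in Gli2CA and NTC (SD, n = 3 each). Rhbdf2, the iRhom that matures ADAM17, had 38.1, 30.2 and 10.9 against 0, 8.81 and 0.016 FPKM. Adam17 itself had 48.0 to 57.9 against 29.4 to 38.3 FPKM, without overlap (limma adjusted p = 0.565). Of 11 genes that damp growth factor receptor signalling 5 were tested. Of these, Lrig1 and Spred1 lay wholly higher (2 of 5, where 10.9% of all genes did). Lrig1 passed the 1 FPKM filter through Gli2CA alone, so its direction was fixed beforehand. Lrig1, a membrane inhibitor of ERBB receptors, had 1.82, 6.61 and 3.001 FPKM in the Gli2CA libraries and at most 0.044 FPKM in the NTC libraries, whereas Errfi1, an ERBB1 inhibitor, had 9.36 to 15.0 against 12.8 to 21.4 FPKM.

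**Figure D3:**
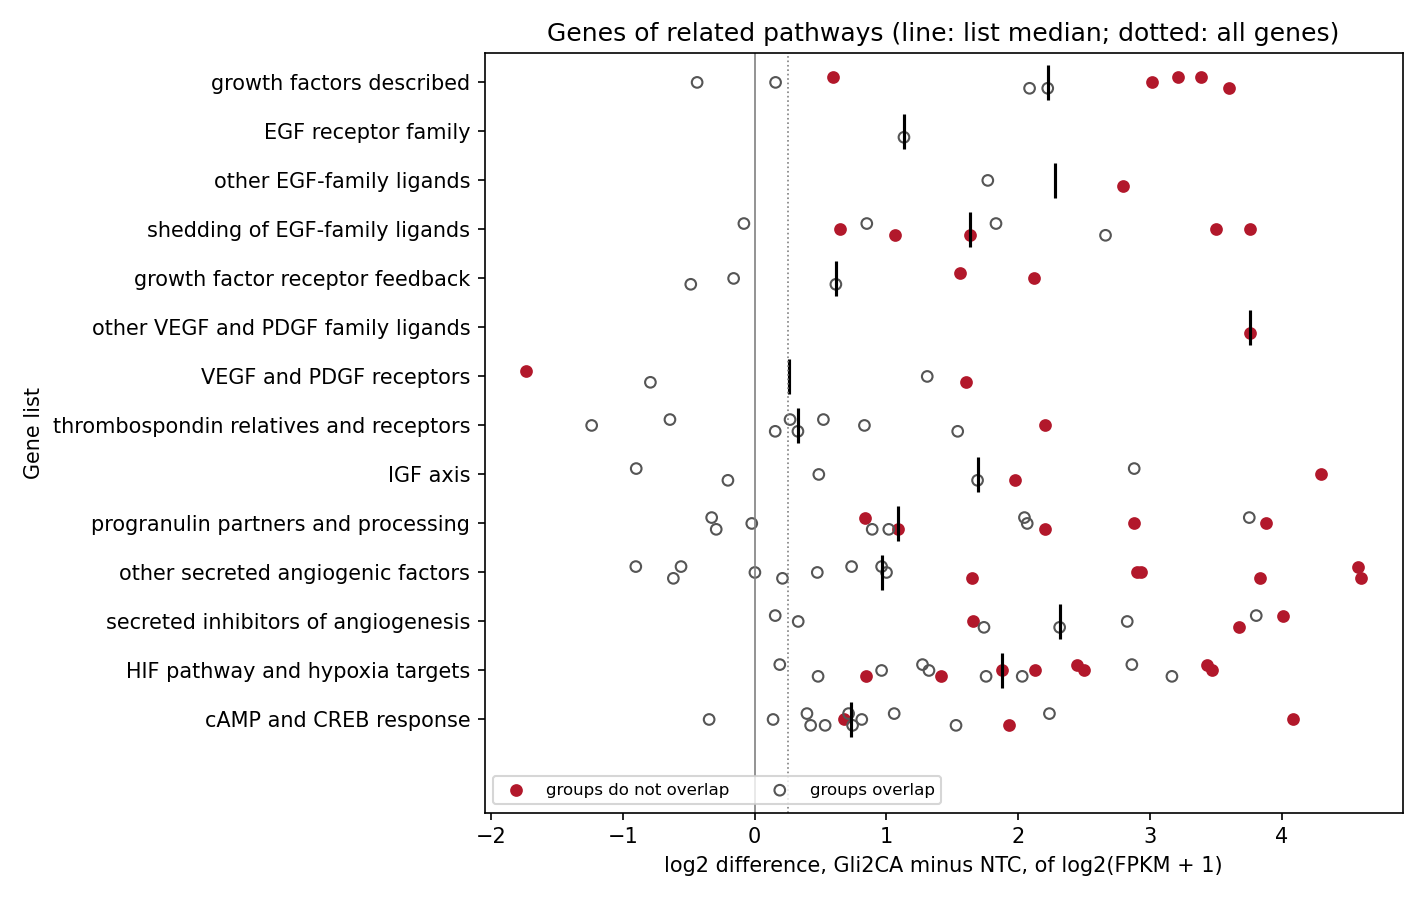
Log2 difference (x axis, Gli2CA minus NTC of log2(FPKM + 1)) of every tested gene in each pathway list (y axis; marker lists are not drawn); red points are genes whose groups do not overlap, open points genes whose groups do, black lines list medians, and the dotted line the median of all genes, 0.25. Nrp1, at -1.73, is the one red point left of 0 in these lists, and all 17 tested HIF pathway genes lie right of 0.

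Of the 16 genes of the IGF axis, 7 were tested, 5 had the higher mean in Gli2CA (4 after quantile normalization), and 2 were higher at an unadjusted p under 0.05, beside 59.7% and 7.82% of all genes. Igfbp3, a carrier that holds IGF away from its receptor, had 17.4, 14.1 and 151 FPKM in the Gli2CA libraries, against 0.026, 4.13 and 0.042 FPKM in NTC 1, 2 and 3 (limma adjusted p = 0.231). Igf2r, the scavenging receptor of Igf2, had 4.64 to 8.38 against 0.064 to 1.72 FPKM, and Igfbp4 overlapped. With NTC 2 as the only NTC library, 3 of 7 had the higher mean and the list median was -0.063 (all genes -0.10), against 1.69 with all libraries (all genes 0.25). Among 16 partners and processing genes of progranulin, 13 were tested, 10 had the higher mean in Gli2CA and 7 were higher at an unadjusted p under 0.05, beside 59.7% and 7.82% of all genes. With NTC 2 as the only NTC library, 8 of 13 had the higher mean and the list median was 0.53 (all genes -0.10), against 1.09 with all libraries (all genes 0.25). Slpi, an inhibitor that shields progranulin from elastase, had 26.9, 25.4 and 11.9 FPKM in the Gli2CA libraries, against 0, 1.81 and 0.066 FPKM in NTC 1, 2 and 3 (limma adjusted p = 0.195). Ctsl, a lysosomal protease that cuts progranulin into granulins, stood at 238 ± 119 against 41.9 ± 43.7 FPKM, and the TNF receptor gene Tnfrsf1a at 282 ± 13.2 against 133 ± 17.98 FPKM, in Gli2CA and NTC (SD, n = 3 each). Psap, whose product travels with progranulin to lysosomes, overlapped at 872 to 1322 against 1060 to 1510 FPKM, and Sort1, its sorting receptor, was at 0.186 to 1.31 FPKM in Gli2CA and at 0 in NTC. Elane and Prtn3, elastases of neutrophils that cut progranulin, were listed at 0 in all 6 libraries.

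Other secreted factors that promote vessel growth numbered 20, of which 15 were tested, 12 had the higher mean in Gli2CA and 6 were higher at an unadjusted p under 0.05, beside 59.7% and 7.82% of all genes. Adm, Apln and Fgf1 are among the 12 and were listed at 0 in all NTC libraries. They passed the 1 FPKM filter through Gli2CA alone, so their direction was fixed beforehand, also for Apln and Fgf1 among the 6. With NTC 2 as the only NTC library, 9 of 15 had the higher mean, and the median of all genes was -0.10. Angptl2, an angiopoietin-like protein, had 118, 41.4 and 40.4 FPKM in the Gli2CA libraries, against 0.021, 13.0 and 0.017 FPKM in NTC 1, 2 and 3. Fgf1 had 13.7, 7.56 and 2.31 FPKM in the Gli2CA libraries and was listed at 0 in all NTC libraries. Il1b, also in this list, differed by 2.93 ± 0.83 on the log2 scale (SE, adjusted p by limma 0.258). The angiopoietin genes Angpt1 and Angpt2 were listed at 0 throughout. Of 10 secreted inhibitors of vessel growth 9 were tested, and all 9 had the higher mean in Gli2CA and 3 lay wholly higher, beside 59.7% and 10.9% of all genes. The higher means numbered 7 of 9 after quantile normalization and 5 of 9 with NTC 2 as the only NTC library. Adamts1, a protease that traps VEGF, had 21.4, 7.37 and 11.3 FPKM in the Gli2CA libraries and at most 0.060 FPKM in the NTC libraries (log2 difference 3.68 ± 0.78, limma adjusted p = 0.195). Counted among the 9 and the 3, it passed the 1 FPKM filter through Gli2CA alone, so its direction was fixed beforehand. Cxcl10, an angiostatic chemokine, differed by 1.66 ± 0.31 on the log2 scale (SE, adjusted p by limma 0.188). Col18a1, the source of endostatin, overlapped at 11.2 to 70.9 against 0.013 to 12.4 FPKM. The inhibitors' median difference was 2.31 and that of the promoting factors 0.96, beside 0.25 for all genes. The 0.96 is the value of Adm, which was found in Gli2CA 1 alone. Without NTC 2 the medians of inhibitors, promoting factors and all genes were 3.54, 1.70 and 0.49. With NTC 2 as the only NTC library they were 1.36, 0.16 and -0.10.

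Since Vegfa is a target of HIF, and Areg of cAMP signalling, both responses were listed. Of 18 HIF pathway genes, 17 were tested, all 17 had the higher mean in Gli2CA (16 after quantile normalization), 8 lay wholly higher and 6 were higher at an unadjusted p under 0.05. Over all genes tested these shares were 59.7%, 10.9% and 7.82%. Adm, one of the 17, was found in Gli2CA 1 alone (6.41 FPKM), so its direction was fixed by the filter. Bnip3, Car9 and the glucose transporter gene Slc2a1 had log2 differences of 2.45, 3.43 and 1.41 (limma adjusted p of 0.195, 0.216 and 0.266). The list median was 1.87 (all genes 0.25), and without both NTC 1 and NTC 3 it was 0.73 (all genes -0.10), with 14 of 17 higher. Of 14 cAMP and CREB response genes, all were tested, 13 had the higher mean (11 after quantile normalization), 3 lay wholly higher and 2 were higher at an unadjusted p under 0.05, beside the same shares of all genes. The 2 were Nr4a1 and Ptgs2 with log2 differences of 1.93 and 4.08. The third by p, the phosphodiesterase gene Pde3b, overlapped. The list median was 0.73, and with NTC 2 as the only NTC library it was 0.47 (all genes -0.10), with 8 of 14 higher. In the Areg window shown above the full response element was present. In NTC 2 Areg was at 11.5 FPKM, against a Gli2CA mean of 10.8 FPKM. Ptgs2 stood there at 10.8 FPKM and Nr4a1 at 71.5 FPKM, against Gli2CA means of 39.4 and 179 FPKM. The part of cAMP signalling in the level of Areg was not tested. In none of these lists did a gene pass the adjusted threshold.

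Markers of other cells that a CD11c gate could hold moved with some of these values. Of 10 melanoma genes, Dct, Tyr, Tyrp1 and Mlana were at 0 in all libraries, and the summed level was 21.05 to 55.9 FPKM in the Gli2CA libraries and 0.0144 to 28.5 FPKM in the NTC libraries. In that list Sox10 had 19.8, 12.1 and 18.4 FPKM in the Gli2CA libraries and was listed at 0 in all NTC libraries, as Pgf and Fgf1 were, and its part in the growth factor values was not tested. Of 10 platelet genes, Gp1bb, Gp9, Treml1 and Tubb1 were at 0 throughout; the sum of 89.1 to 271 against 0 to 70.1 FPKM was nearly all Pf4, which myeloid cells also make. Endothelial Tek, Emcn and Cldn5 were at 0 in all libraries and the sum of the 10 endothelial genes was 22.4 to 29.3 against 2.37 to 26.4 FPKM. The 10 fibroblast and pericyte genes, each detected in at least 1 library, summed to 89.4 to 346 FPKM in the Gli2CA libraries, against 36.3, 3429 and 26.9 FPKM in NTC 1, 2 and 3. NTC 2, the highest by far, was also the library with the most Igf1 and Vegfb, and the part of such cells in those values was not tested. The 14 monocyte and macrophage genes, all detected, summed to 6240 to 10642 FPKM in the Gli2CA libraries and 6780 to 9490 FPKM in the NTC libraries, with overlap. Their mean log2 level, which weights each gene equally, was 6.58 to 7.37 in the Gli2CA libraries and 5.75 to 6.42 in the NTC libraries. In Gli2CA 12 of 14 had the higher mean log2 level, where 59.7% of all genes did, with C1qa and Apoe the exceptions. Vcan, one of the 12, was listed at 0 in all NTC libraries, so its direction was fixed by the filter. Of the 14, 4 lay wholly higher, where 10.9% of all genes did. The list median was 0.54 (all genes 0.25), and with NTC 2 as the only NTC library it was 0.35 (all genes -0.10). The 11 conventional dendritic cell genes, all detected, summed to 1912 to 2629 FPKM in the Gli2CA libraries and 3217 to 3535 FPKM in the NTC libraries. Their mean log2 level was 6.07 to 6.57 in the Gli2CA libraries and 7.02 to 7.18 in the NTC libraries, so it was lower in Gli2CA, opposite to the 5 separating growth factor genes. Of the 11, 5 lay wholly lower, where 5.79% of all genes tested did. Itgax and Sirpa had the higher mean in Gli2CA (2 of 11, where 59.7% of all genes did), and Itgax lay wholly higher. The part of either in the growth factor values was not tested. Of 10 neutrophil genes Ly6g and Retnlg were at 0 in all libraries, with a sum of 17.97 to 287 against 56.6 to 76.8 FPKM. Of 10 mast cell and basophil genes Ms4a2, Mcpt8 and Gata2 were at 0, with sums of 35.3 to 45.7 against 4.86 to 62.0 FPKM. Summed levels in Gli2CA and NTC were 608 to 879 and 929 to 1782 FPKM for 10 T cell and innate lymphoid genes, 128 to 255 and 679 to 762 FPKM for 8 B cell genes, and 505 to 799 and 307 to 681 FPKM for 8 natural killer genes. By mean log2 level the groups overlapped in each of these lists. The levels were 4.86 to 5.16 against 3.85 to 5.67 for the T cell list and 2.09 to 2.52 against 1.29 to 2.76 for the B cell list. For the natural killer list they were 4.25 to 4.87 against 3.11 to 4.56. Of 6 epithelial genes Krt5 was at 0 throughout, with sums of 27.0 to 61.9 and 14.1 to 35.7 FPKM.

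**Figure D4:**
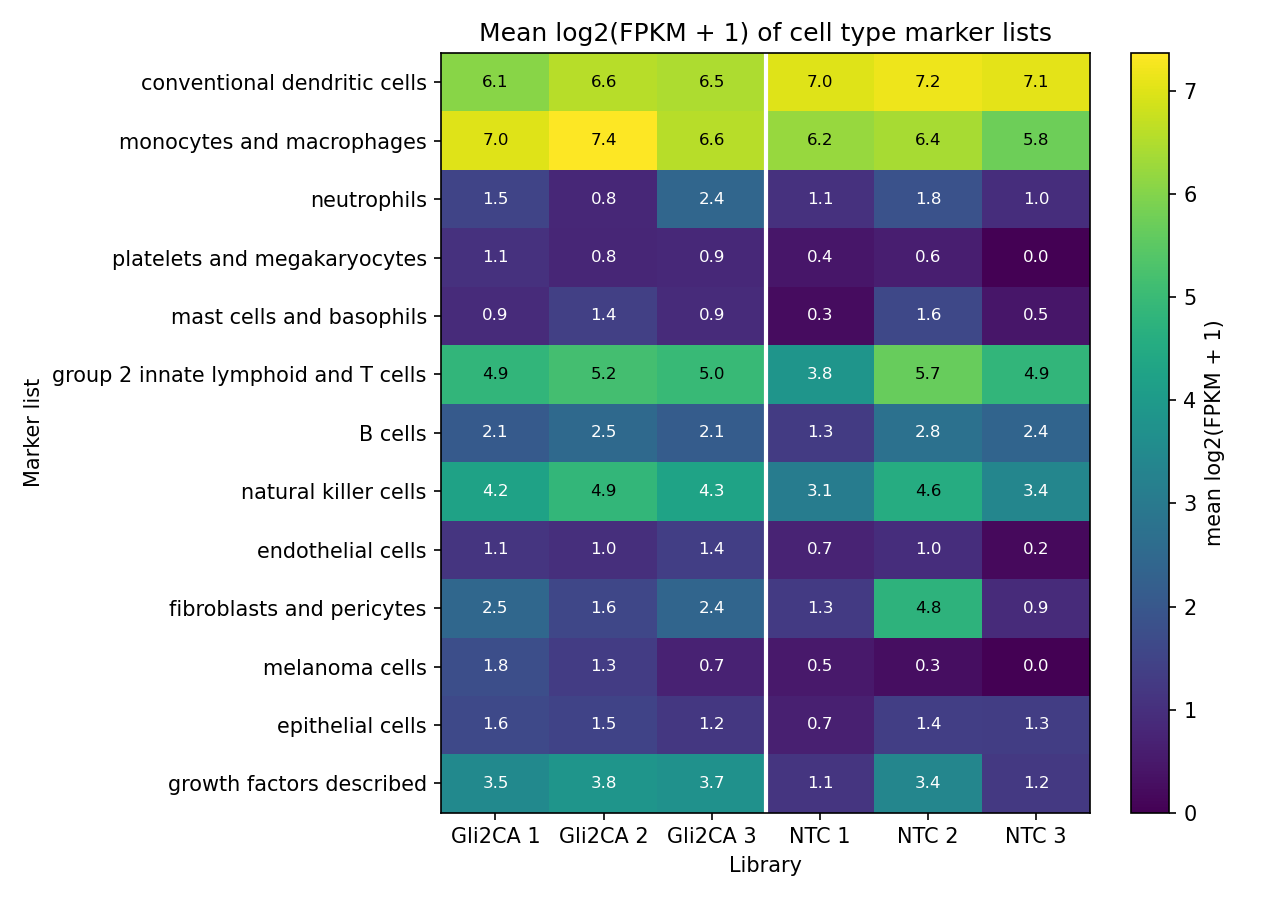
Mean log2(FPKM + 1) of the genes of each marker list (y axis) and of the 10 growth factor genes (bottom row) in each library (x axis, Gli2CA left of the white line, NTC right of it). The mean of the dendritic cell genes is higher, and that of the monocyte and macrophage genes lower, in each NTC library. The mean of the fibroblast genes is highest in NTC 2, and the growth factor row is low in NTC 1 and NTC 3 only.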

How the data were processed

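RNA was measured in 6 libraries. Per the labels' protocols, collagenase and DNase freed the tumour cells, a FACS sorter took those bearing CD11c, messenger RNA was bound on poly-T beads, and libraries were primed with random hexamers. The authors deposited 1 table of FPKM values. The sources used here do not name its aligner, counting tool, build, annotation or use of strand. Each column name was looked up among the sample descriptions.

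Gene symbols were looked up by ID (54409 of 54532 matched), and coordinates, gene types and lengths from GENCODE M21 on GRCm38 (54495 matched), counted from 1. FPKM times mean transcript length came to whole fragments, within 0.05 of one, for 96.7 to 98.3% of the values worth up to 20 fragments. This gave the fragment numbers, and intervals or floors cover counting error only.

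The test was limma 3.58.1 (R 4.3.3), fitted to log2(FPKM + 1) by group without other covariates, with a variance trend and two-sided p-values. Benjamini-Hochberg adjustment covered the 12266 genes whose mean reached 1 FPKM. It was tested on simulated data, and 20 other settings were tried, 2 of them added after seeing the data. Figures were drawn with Python 3.11.15, pandas 2.3.3, numpy 2.4.6 and matplotlib 3.10.9. The growth factor genes and the gene lists (13 for pathways, 12 for markers) were chosen with earlier results of these data known. Named are the growth factor genes, a fixed set of receptors, the 3 genes of each list with the smallest p, the 2 genes closest in pattern to each growth factor gene, and markers at 0; Genes named outside this rule (Adam17, Psap, Elane, Prtn3, Angpt1, Angpt2, Sox10 and Pf4 among them) and the promoters of Areg and Vegfa were chosen after values were seen. No column was left out. Some genotype detail of the line and some marker genes are not reported here.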

Additional observations from a re-analysis of the deposited data

How the results depend on the processing

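No growth factor gene passed the adjusted threshold in any of the 20 other settings, and Vegfa, Thbs1, Hbegf, Pdgfa and Grn kept the higher mean in Gli2CA in all of them. Over all genes, limma called 0 with the deposited values (1304 at an unadjusted p under 0.05), 21 after quantile normalization and 0 to 6 on leaving out 1 library, the 6 without NTC 2. The 1304 became 393 with a replicate block by description number and 766 to 2362 on leaving out 1 library, the lowest without Gli2CA 1 and the highest without NTC 2. The 5 growth factor genes at an unadjusted p under 0.05 became 1 with that block, 4 to 7 on leaving out 1 library, and 5 with a block by title number, which gave 1088 genes. The r of deviations was -0.042, -0.002 and -0.007 between same-numbered titles. It was -0.064 between Gli2CA 3 and NTC 2, which share description number 3. With 3 libraries per group, these values cannot settle whether the libraries are paired. The median difference of the growth factor genes, 2.22, was 4.19 with a pseudocount of 0.1, 5.34 with voom on recovered fragments, 0.55 without both NTC 1 and NTC 3 (both chosen after seeing the data) and 1.61 to 3.23 on leaving out 1 library. Without both NTC 1 and NTC 3 signs turned for Areg (-0.18), Pdgfb (-0.21), Vegfb (-2.19) and the median of all genes (-0.10). With quantile normalization that median was -0.034 and Vegfb -0.71. Vegfb was -0.086 with library weights, -0.79 with the description block and -0.44 to 1.33 on leaving out 1 library, and Igf1 -1.47 to 1.04. A lone NTC library is there taken to vary as the Gli2CA libraries do. The cause of these shifts was not tested. Shallow depth in NTC 1 limits levels under about 0.13 FPKM for Vegfa and Areg.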
